A study of Arabidopsis thaliana with 13 samples.

Results

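GSA1, HEMB1, CHLM and PORB encode 4 enzymes that act at successive stages of chlorophyll synthesis. They were taken by name from the tetrapyrrole and chlorophyll genes that have a probe set annotated to a single gene, and are 4 of the 13286 genes so annotated on the array. GSA1 is AT5G63570, HEMB1 is AT1G69740, CHLM is AT4G25080 and PORB is AT4G27440, and each was read by 1 probe set. Their transcripts were followed in whole seedlings of Arabidopsis thaliana accession Col-0 (stock code N1093, labelled developmental stage 1.0), kept at 22 C in a growth room under a 12 h photoperiod, on agar plates of MS medium that held 3% sucrose. All seedlings were of this 1 genotype, and no treatment is labelled. Samples were collected at 4 h steps between hours 26 and 74, and each of these 13 times was read on a single Affymetrix ATH1 array. Neither the event that set hour 0 nor the lighting during collection is labelled, so a time of day here is the hour of the course modulo 24.

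Chlorophyll is a tetrapyrrole built in the plastid from glutamate. GSA1, a glutamate-1-semialdehyde aminomutase, makes 5-aminolevulinic acid, and HEMB1, a 5-aminolevulinic acid dehydratase, condenses it to porphobilinogen. These early steps also feed the haem branch. CHLM, the magnesium-protoporphyrin IX methyltransferase, acts after magnesium is inserted and the chlorophyll branch has begun. PORB is a protochlorophyllide oxidoreductase, whose reduction of protochlorophyllide needs light, and it acts late in the pathway. Several intermediates are harmful to cells in light, and flow through the pathway is known to be tightly controlled in seedlings.

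Signals are linear probe set intensities, scaled by the authors so that every array has nearly the same trimmed mean, and the median signal of an array lay between 46.8 and 50.9. All 4 genes lay well above the mean signal of 31.8 that the filter on dim probe sets required, so all 4 were tested. A signal depends on the probes of its own probe set, so signals are compared between hours of 1 gene and never between genes. In whole seedlings a lower signal can come from fewer cells that express a gene or from less RNA per cell, and these cannot be told apart. With 1 array per time point, error is measured by the scatter of arrays round a fitted curve, and beside it by the spread of arrays 24 h apart. Either may be technical, and precision is limited by how few arrays there are.

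In the values below, a pair of neighbouring hours of day was picked for each gene after its values were seen, where they were lowest for GSA1 and highest for the others. The separation from the other arrays is therefore a description, with no test. GSA1 varied least. Its signal at hours 26, 30, 34, 38, 42 and 46 was 378.6, 342.5, 457.9, 432.2, 435.5 and 433.3. At hours 50, 54, 58, 62, 66, 70 and 74 it was 423.5, 378.7, 487.3, 428.4, 410.8, 433.3 and 356.8. The lowest and highest arrays, hours 30 and 58, differed 1.42-fold. The 5 arrays at hours 2 and 6 of the day (hours 26, 30, 50, 54 and 74) gave 342.5 to 423.5, against 410.8 to 487.3 on the other 8 arrays, and only hour 66 among those 8 fell below the highest of the 5. From hour 30 to hour 34 and from hour 54 to hour 58, GSA1 stepped up in both cycles.

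HEMB1 had a daily crest near hour 10 in both cycles. Its signal at hours 26, 30, 34, 38, 42 and 46 was 470.4, 635.7, 737.8, 677.1, 609.8 and 569.9. At hours 50, 54, 58, 62, 66, 70 and 74 it was 552.8, 673.3, 711.3, 591.4, 534.5, 525.5 and 503.1. The highest array of each cycle was at hour 34 and at hour 58, 24 h apart. The 4 arrays at hours 6 and 10 of the day gave 635.7 to 737.8, against 470.4 to 677.1 on the other 9, of which only hour 38 reached into that range.

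CHLM was high at other hours of the day than HEMB1. Its signal at hours 26, 30, 34, 38, 42 and 46 was 986.3, 1204, 981.3, 950.5, 905.9 and 1072. At hours 50, 54, 58, 62, 66, 70 and 74 it was 1374, 1255, 983.4, 921.2, 1039, 1136 and 1196. The lowest arrays of the cycles, hours 42 and 62, fell at hours 18 and 14 of the day, when HEMB1 was past its crest. Arrays at hours 2 and 6 of the day gave 986.3 to 1374 (5 arrays), against 905.9 to 1136 on the other 8. Only hour 26 of the 5 lay inside the range of the others.

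PORB had the widest swing. Its signal at hours 26, 30, 34, 38, 42 and 46 was 620.6, 2179, 2049, 1334, 1445 and 1067. At hours 50, 54, 58, 62, 66, 70 and 74 it was 1288, 2526, 2157, 1290, 1477, 1305 and 1371. The lowest and highest arrays, hours 26 and 54, differed 4.07-fold. The 4 arrays at hours 6 and 10 of the day gave 2049 to 2526, against 620.6 to 1477 on the other 9, and these ranges did not overlap. The high arrays were neighbours in each cycle.

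**Figure D1:**
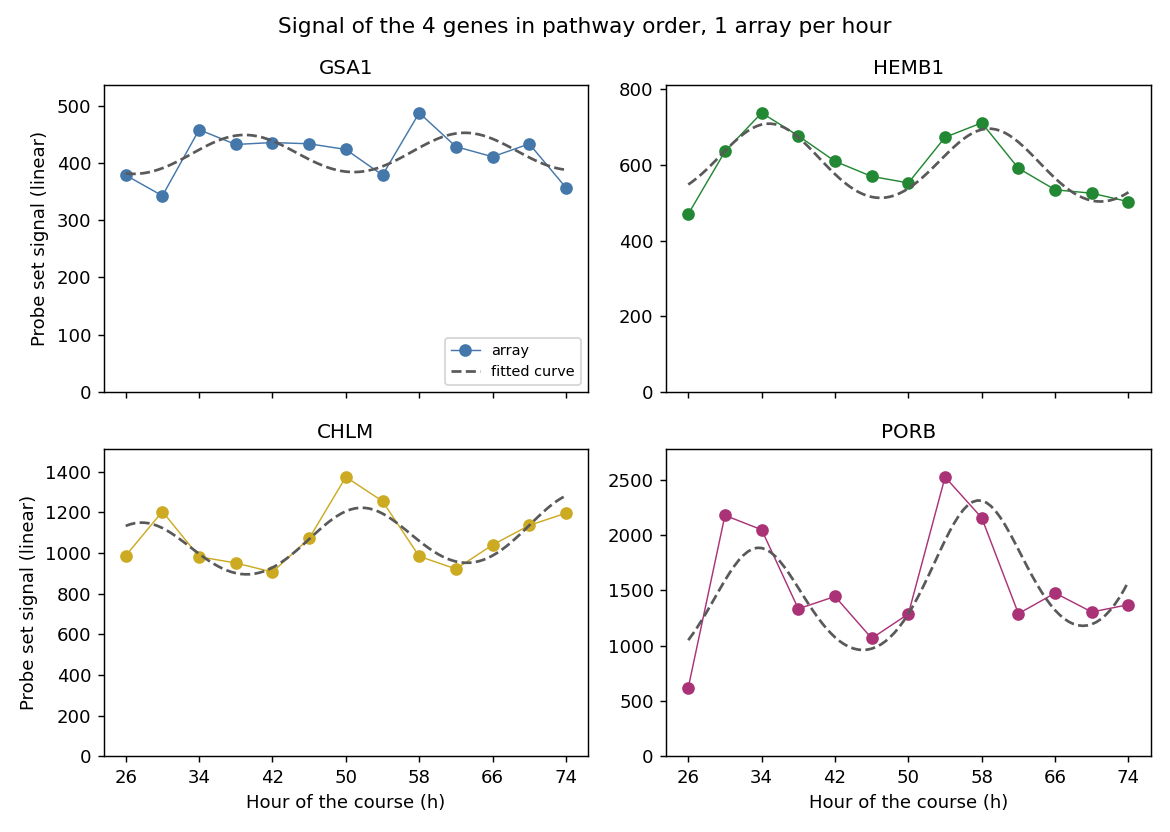
Probe set signal (linear scale, from 0) of GSA1, HEMB1, CHLM and PORB against the hour of the course; points are single arrays, and the dashed line is the fitted curve of linear time and a 24 h cosine. PORB stands high at hours 30, 34, 54 and 58, HEMB1 crests at hours 34 and 58, CHLM is highest at hour 50, and GSA1 stays between 342.5 and 487.3.

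The first comparison asked whether each transcript followed a 24 h rhythm. A curve of linear time plus the cosine and sine of 24 h was fitted to the log2 signal, and its amplitude is the height of the crest above the mean, so that trough and peak lie 2 amplitudes apart. PORB changed 2.17-fold from trough to peak, HEMB1 1.37-fold and CHLM 1.32-fold, and these 3 were rhythmic (adjusted p of 0.029, 0.018 and 0.024 in limma's moderated F test over all 13647 probe sets tested). GSA1 changed 1.17-fold and was not called (adjusted p = 0.28), with a 95% interval of 1.01-fold to 1.37-fold that just reaches the fitted change of HEMB1. A fitted amplitude cannot be negative, so this interval is no test of a rhythm. The unadjusted p of the F test for GSA1 was 0.12. Among all probe sets tested, 18.3% were called rhythmic. The 4 genes were known to include called genes when they were chosen, so their share is a description.

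The fitted peaks are given here in the order of the reactions. Hours of the day recur and the start of the course is not labelled, so no peak can be called first or last. Whether the peaks follow the order of the reactions was therefore not tested. The peak came at hour 14.9 ± 1.9 (SE) for GSA1, which was not called, at hour 10.9 ± 0.88 for HEMB1, at hour 3.46 ± 1.02 for CHLM and at hour 9.36 ± 0.88 for PORB. The amplitude was 0.12 ± 0.05 (SE, log2) for GSA1, 0.23 ± 0.05 for HEMB1, 0.20 ± 0.05 for CHLM and 0.56 ± 0.14 for PORB. PORB, the latest enzyme of the 4, thus had the widest fitted curve, while HEMB1 and CHLM had curves of similar height and separate timing. The median amplitude over all tested probe sets was 0.14, and that over the 2504 rhythmic ones 0.37. HEMB1 and CHLM lay low among the rhythmic probe sets, with 9.66% and 4.11% of them shallower, and PORB lay high, with 78.0% shallower. Within 2 h of the fitted peak lay 524 rhythmic probe sets for PORB (20.9% of all rhythmic ones), 453 for HEMB1 (18.1%) and 268 for CHLM (10.7%).

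**Figure D2:**
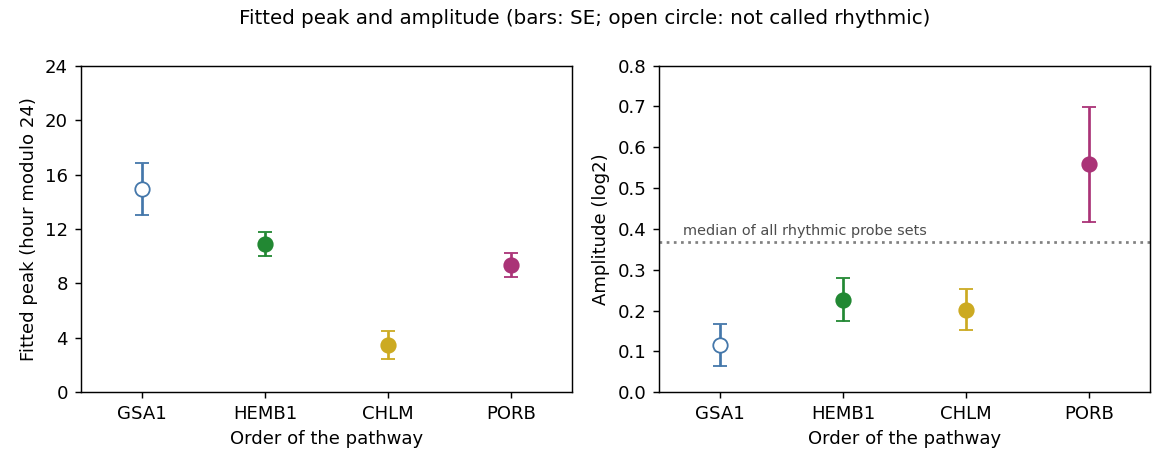
Fitted peak (hour of the course modulo 24, left) and amplitude (log2, right) of the 4 genes in pathway order; bars are standard errors, and the open circle marks GSA1, which was not called rhythmic. CHLM peaks at hour 3.46, apart from HEMB1 at 10.9 and PORB at 9.36, and PORB alone of the 4 lies above the median amplitude of 0.37 of all rhythmic probe sets.

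There were 7 pairs of arrays 24 h apart. Their spread, as the SD of the log2 difference divided by the square root of 2, was 0.10 for GSA1, 0.11 for HEMB1, 0.15 for CHLM and 0.26 for PORB. The trough-to-peak change on the log2 scale was 0.23, 0.45, 0.40 and 1.12 in the same order of genes. The wide spread of PORB came from the pair of hours 26 and 50. Hour 26 lay far from the fitted curve (-0.76, log2) and hour 50 lay on it (-0.001). The spread was 0.087 without hour 26 (6 pairs) and 0.097 without hour 50 (5 pairs), and either omission drops this pair. Without hour 26 it was 0.098 for GSA1, 0.074 for HEMB1 and 0.095 for CHLM, and without hour 50 it was 0.064, 0.081 and 0.065, so the order of the genes by this spread rested on single arrays. For PORB the 24 h terms took up 52.9% of the variance left after linear time, against 70% for HEMB1, 68.1% for CHLM and 36.5% for GSA1. The largest departures of PORB from its curve were at hour 26 (-0.76, log2) and hour 62 (-0.54). HEMB1 (-0.22) and CHLM (-0.20) also had their largest negative departures at hour 26, whereas GSA1 lay on its curve there (-0.01).

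Each of the 3 calls could be lost by leaving out a single array. The call for HEMB1 was lost without hour 26 or 58 (adjusted p of 0.055 and 0.065). That for CHLM was lost without hour 42, 50, 54 or 62 (adjusted p of 0.052 to 0.066), and that for PORB without hour 34, 46, 54 or 58 (0.057 to 0.071). With single arrays left out, the amplitude of PORB ran from 0.44 to 0.65 and that of GSA1, which was never called, from 0.09 to 0.14. Peaks lay within hours 10.4 and 11.3 for HEMB1, 2.86 and 4.06 for CHLM, and 8.17 and 9.99 for PORB. For GSA1 they lay within 13.9 and 16.8. The earliest of these peaks of PORB, at hour 8.17, came without hour 26. Without both hours 26 and 74 the PORB peak was at hour 7.83. The number of the 4 genes called was 3 on all arrays and 1 to 3 with an array left out.

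**Figure D3:**
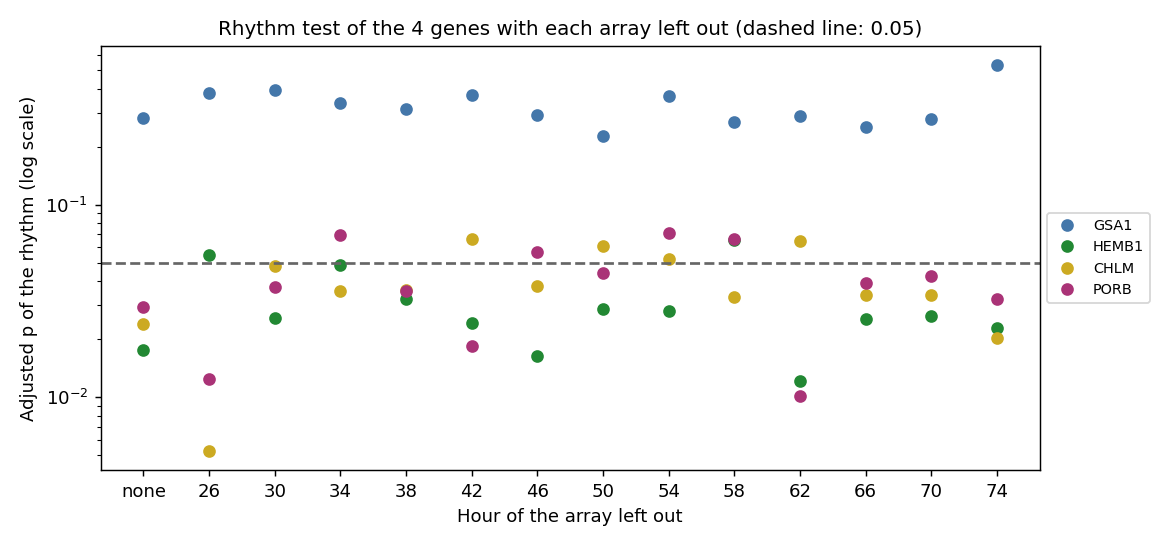
Adjusted p of the rhythm test (log scale) for the 4 genes, with no array left out (leftmost) and with each array left out in turn, by its hour; the dashed line is the threshold of 0.05. GSA1 stays above the line throughout, while HEMB1, CHLM and PORB cross it for 2, 4 and 4 of the 13 arrays.

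The second comparison asked whether pairs of the 4 genes had different daily courses. The log2 ratio of the gene of the later step to that of the earlier step was taken on each array, and its 24 h terms were set against those of 100000 random orders of the arrays, with p-values adjusted over the 6 pairs. A rhythmic ratio shows that the pair changed unequally over the day, and a factor common to an array cancels from it.

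CHLM and HEMB1 differed most clearly. Their ratio changed 1.63-fold over the day (permutation p = 0.00041, adjusted p = 0.0025), was highest at hours 50 and 74 and lowest at hours 34 and 58. The fitted peak of CHLM was earlier than that of HEMB1. The difference was -7.41 ± 1.40 h (CHLM minus HEMB1, SE), with a 95% interval of -10.6 to -4.25 h. The amplitudes of the pair differed by -0.02 ± 0.07 (CHLM minus HEMB1, SE, log2), with a 95% interval of -0.19 to 0.14. This ratio passed in all 18 alternatives, with adjusted p of up to 0.027, as no other pair did.

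PORB and CHLM, the later pair of enzymes, also had unequal courses, with a 2.26-fold change in their ratio (permutation p = 0.0091, adjusted p = 0.018). The fitted peak of PORB lay 5.90 ± 1.48 h (SE) after that of CHLM, with an interval of 2.55 to 9.24 h. This interval takes the cosine shape as given. By hour of day both genes had their highest mean signal at hour 6, with 2353 for PORB and 1229 for CHLM. The PORB amplitude was larger by 0.36 ± 0.18 (SE, log2), and the interval of -0.05 to 0.76 includes no difference. Without hour 34 the adjusted p was 0.053.

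The PORB to HEMB1 ratio did not pass (1.65-fold, permutation p = 0.081, adjusted p = 0.081). The difference in peak, PORB minus HEMB1, was -1.51 ± 0.77 h (SE), with an interval of -3.25 to 0.23 h. The PORB amplitude was larger by 0.33 ± 0.14 (SE, log2; interval 0.01 to 0.66). The ratio passed without hour 42 or without hour 62 (adjusted p of 0.046 and 0.047). These genes also departed from their curves together: across the 13 arrays the residuals had a correlation of 0.78, and the log2 signals one of 0.77. Both lay below their curves at hour 26 (PORB -0.76, HEMB1 -0.22, log2) and hour 62 (-0.54 and -0.16). Residuals also correlated at 0.59 for PORB with CHLM and 0.47 for CHLM with HEMB1. All these values are descriptions of points that share the arrays.

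Ratios to GSA1 rest on a gene with no called rhythm, so differences of peak are loosely defined. The CHLM to GSA1 ratio changed 1.55-fold (permutation p = 0.0085, adjusted p = 0.018), and the HEMB1 to GSA1 ratio 1.32-fold (permutation p = 0.026, adjusted p = 0.040). The PORB to GSA1 ratio, which changed 2.16-fold, did not pass (permutation p = 0.045, adjusted p = 0.054). CHLM, whose high hours of day were the low hours of GSA1, differed from it in fitted peak by -11.5 ± 2.0 h (CHLM minus GSA1, SE). The interval was wide, at -16.0 to -6.87 h. HEMB1 differed from GSA1 by -4.05 ± 1.86 h (interval -8.26 to 0.16 h). The HEMB1 to GSA1 call was lost without hour 34, 38, 46, 50, 54, 66, 70 or 74 (adjusted p of up to 0.084). The PORB to GSA1 ratio passed without hour 26, 42 or 62 (adjusted p of 0.028 to 0.039).

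**Figure D4:**
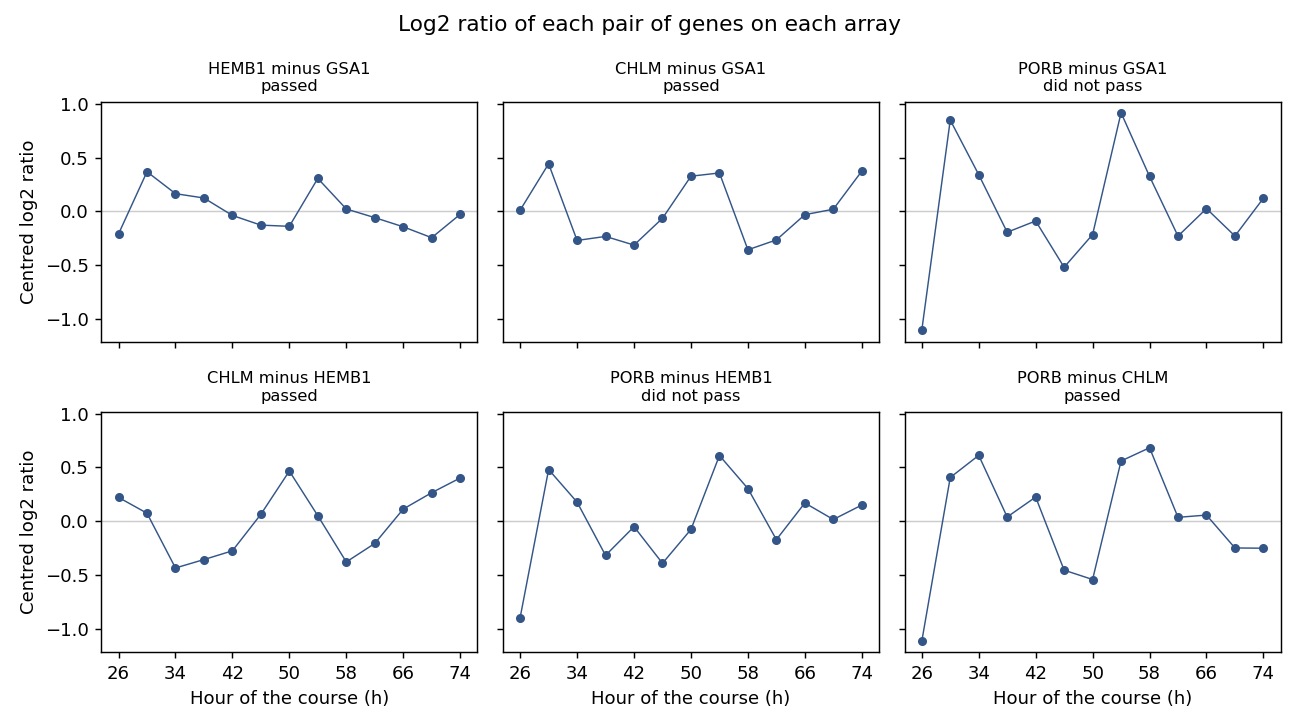
Log2 ratio of each pair of genes on each array (later step minus earlier step, centred on its mean) against the hour of the course; titles say whether its 24 h terms passed at an adjusted p under 0.05. The CHLM to HEMB1 ratio runs low at hours 34 and 58 and high at hours 50 and 74, and the ratios with PORB have their lowest point at hour 26.

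The third comparison asked whether the signals rose or fell across the 48 h, once the daily curve was allowed for. None of the 4 genes was called in limma's moderated test, where 0.960% of all probe sets were called, and none had an unadjusted p under 0.05. The slope per 24 h was 0.30 ± 0.16 (SE, log2) for PORB (adjusted p = 0.52), 0.09 ± 0.06 for CHLM, -0.03 ± 0.06 for HEMB1 and 0.01 ± 0.06 for GSA1. In PORB 6 of the 7 pairs of arrays 24 h apart were higher at the later hour, the exception being hours 38 and 62. Hour 26 made up nearly all of the PORB slope, which was 0.01 without it. For GSA1 the slope had the opposite sign without hour 30, 58 or 70.

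The fourth comparison took the later cycle (hours 50 to 70) and the earlier cycle (hours 26 to 46), each with its own curve over 6 arrays. No probe set passed limma's test (0% of 13647 called, 450 with an unadjusted p under 0.05, and 0 called in ordinary F tests without moderation), and the adjusted p of each of the 4 genes was 1.00. The fitted peak of PORB lay at hour 7.93 in the later cycle and 10.9 in the earlier one. That of HEMB1 lay at hour 8.84 and 12.1, that of CHLM at 2.26 and 4.49, and that of GSA1 at 12.9 and 15.99. All 4 fitted peaks were thus 2.23 to 3.24 h earlier in the later cycle, with standard errors of 0.97 to 5.51 h for single peaks. Yet the highest arrays of the cycles were 24 h apart for GSA1 and HEMB1 (hours 34 and 58) and for PORB (hours 30 and 54). Those of CHLM were hours 30 and 50. Hour 26, where PORB, HEMB1 and CHLM lay below their curves of the whole course, is among the 6 arrays of the earlier cycle. Over the 2504 rhythmic probe sets the median shift was -0.64 h with quartiles of -1.48 and 0.24 h. Of these, 1736 had an earlier peak in the later cycle, and 13.4% had a shift of -2 h or lower. The amplitude of CHLM was 0.27 ± 0.07 (SE, log2) in the later cycle and 0.13 ± 0.07 in the earlier one, and that of PORB 0.43 ± 0.20 and 0.61 ± 0.20. HEMB1 had 0.23 ± 0.07 and 0.26 ± 0.07, and GSA1 0.06 ± 0.08 and 0.16 ± 0.08. The period with the lowest residuals, on a grid of 20 to 30 h, was 23 h for GSA1 and PORB, 22.5 h for HEMB1 and 21 h for CHLM, against a median of 23.5 h for all rhythmic probe sets.

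Other genes of the pathway were taken from lists that held 61 loci, of which 15 had a probe set with a single gene and 12 were tested. Beside the 4 genes above, 8 were tested and 2 were rhythmic, CHLP and HEME2, a share near the 18.3% of all tested probe sets. CHLP (AT1G74470), the geranylgeranyl reductase that makes the phytol tail of chlorophyll, changed 1.48-fold with a peak at hour 1.03 ± 0.85 (SE, adjusted p = 0.0064). Its signal ranged from 1642 at hour 38 to 2942 at hour 50, and the call held in all 24 alternatives. HEME2, a uroporphyrinogen decarboxylase that acts between HEMB1 and CHLM, changed 1.44-fold with a peak at hour 5.96 ± 0.78 (adjusted p = 0.011). Its signal ranged from 434.7 at hour 42 to 691.2 at hour 54, and the call was lost without hour 42 (adjusted p = 0.053).

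HEME1, the relative of HEME2, had a fitted change of 1.48-fold with a peak at hour 6.67 and was not called (adjusted p = 0.10), but was called without hour 26 or 46 (adjusted p of 0.018 and 0.024). Its signal was lowest at hour 26 (256.9), as in PORB and HEMB1, and highest at hour 54 (478.8), as in PORB. CHLI2, a subunit of the magnesium chelatase that opens the chlorophyll branch, had a fitted change of 1.32-fold with a peak at hour 7.99 (adjusted p = 0.068) and was called without hour 38 or 62 (adjusted p of 0.045 and 0.031). HEMA2, a glutamyl-tRNA reductase of the first committed step, had 1.32-fold with a peak at hour 10.7 and was not called (adjusted p = 0.25). LIL3:1 and LIL3:2, light-harvesting-like proteins that anchor geranylgeranyl reductase, had 1.15-fold and 1.06-fold (adjusted p of 0.41 and 0.77). NOL, a chlorophyll b reductase of chlorophyll turnover, had 1.04-fold (adjusted p = 0.97). LIL3:1 (564.0) and NOL (89.7) were also lowest at hour 26. The median amplitude over the 12 tested genes was 0.20, against 0.14 over all tested probe sets, and none of the 12 was called for drift, where 0.359% of all probe sets rose and 0.601% fell.

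**Figure D5:**
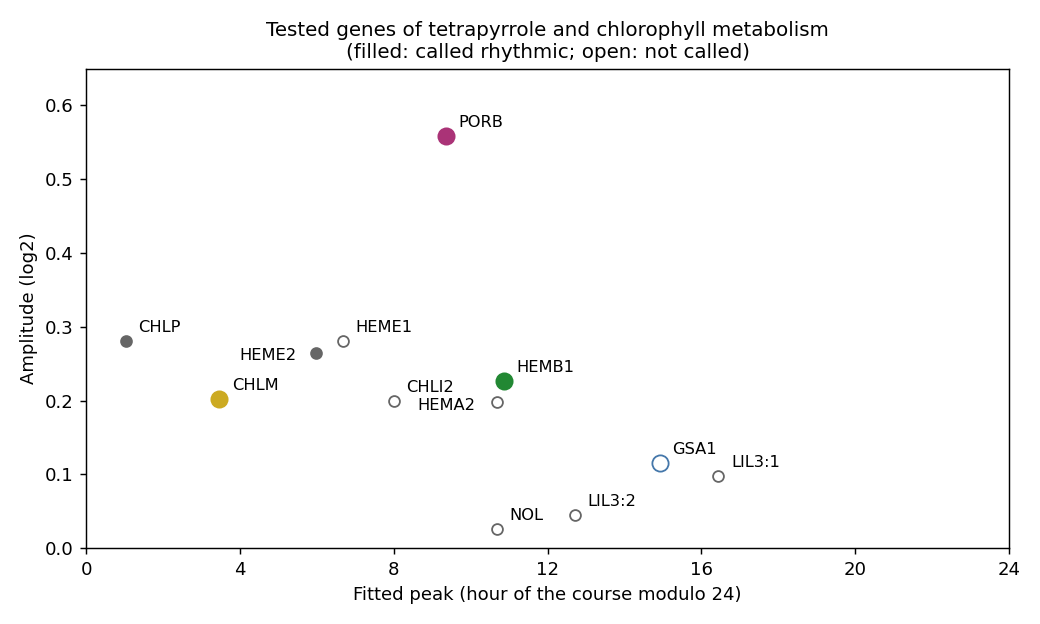
Amplitude (log2) against fitted peak (hour of the course modulo 24) for the 12 tested genes of tetrapyrrole and chlorophyll metabolism; filled points were called rhythmic and open points were not. The 5 called genes peak between hour 1.03 (CHLP) and hour 10.9 (HEMB1), and PORB has the largest amplitude of the 12.

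For each of the 4 genes, the most similar courses were sought among the 7347 tested probe sets with a single named gene, by Pearson correlation of log2 signal over the 13 arrays. CHLM was most like PSAN, a photosystem I subunit (r = 0.94), which peaked at hour 3.66 with a 1.54-fold change, followed by AT5G65840 (0.92) and AT1G51400 (0.91), with peaks at hours 2.40 and 2.61. HEMB1 was most like AT3G15630 (0.95), which peaked at hour 11.0 but changed 5.04-fold, then AT2G47960 (0.93) and AT4G32060 (0.93). PORB was most like AT5G18590 (0.93), AT1G70820 (0.92) and AT1G19740 (0.91), with peaks at hours 9.07, 9.36 and 9.78, and AT1G70820 changed 6.76-fold. GSA1 was most like AT3G04550 (0.92), AT1G47740 (0.90) and AT3G57990 (0.89), none of which was called rhythmic. These values describe the best of many candidates over 13 shared arrays.

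Markers of tissues were set beside these courses. Of 11 green tissue markers 6 had a named probe set, and their summed signal ran from 10434 at hour 26 to 15216 at hour 70. LHCB4.1 alone was itself lowest at hour 26, and the others were lowest at later hours. Their fitted peaks also differed, for instance hour 3.47 for LHCB4.2 and hour 20.6 for LHCB4.3. Of 5 root markers 3 were named, with sums of 2592 at hour 34 to 3559 at hour 50. The root sum was nearly all PYK10, at 2524 and 3492 on those arrays. EXPA18 ran instead from 35.3 at hour 50 to 64.9 at hour 26, and EXPA7 from 21.7 at hour 34 to 60.8 at hour 30. Of 4 seed reserve markers only ICL, isocitrate lyase of lipid use in seedlings, was named, and its signal ran from 394.7 at hour 42 to 1510 at hour 26. No named marker was at 0 on any array. PORB and HEMB1 were thus at their lowest on the array where the green markers summed to least and ICL was highest. ICL was almost as high at hour 58 (1438), where HEMB1 (711.3) and PORB (2157) were high. The green sum was almost as low at hour 38 (10518), where HEMB1 was 677.1 and PORB 1334. At hour 34, with a green sum of 11095, HEMB1 (737.8) and PORB (2049) were high, as at hour 58 (green sum 11005). Whether the make-up of the tissue had a part in their results was not tested.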

How the data were processed

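The authors' deposited values are linear intensity signals, 1 per probe set and array, from Affymetrix ATH1 arrays of 13 time points. Per the submitters' processing notes the software was MAS5, of a version not stated there. Log2 was taken of the 22746 non-control probe sets, and the 13647 with a mean above the 40th percentile were tested. The models used R 4.3.3 and limma 3.58.1, with lmFit, an eBayes step that followed the intensity trend, Benjamini-Hochberg adjustment over all tested probe sets and calls at an adjusted p under 0.05. The rhythm test was the moderated F of both 24 h terms, and the drift test that of the slope on time. The cycle comparison, on 12 arrays, let both 24 h terms differ between the cycles and tested that interaction.

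Standard errors of peaks and amplitudes come from the delta method, and those of pair differences use the joint residuals of both fits on 9 degrees of freedom, without moderation. Permutation tests of ratios used random orders of the arrays, which also break any linear trend. The platform annotation gave 1 gene to 13513 probe sets, several to 503 and none to 8730, and 13436 of the single genes matched the gene table of TAIR10.1. No genome build is named for the array, so no coordinates are printed, and signal from related genes on a probe set was not tested. Alternatives changed scaling, offset, filter, variance model, curve terms, period and arrays. The text names the 4 genes, all listed pathway genes with a named probe set, the markers, and the 3 most correlated genes for each of the 4. The members and lists were chosen with earlier results of these data known. The fits were tested on simulated data. Figures were drawn with matplotlib 3.10.9.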

Additional observations from a re-analysis of the deposited data

How the results depend on the processing

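The number of rhythmic probe sets stayed within 1.5 times the 2504 called under every alternative (1770 to 2567, and 2050 to 2443 with 1 array left out). GSA1 was not called under any of 24 alternatives, with amplitudes of 0.086 to 0.14 when 1 array was left out. HEMB1 kept its call in 21 of 24, CHLM in 19 and PORB in 16. At a period of 26 h none of the 4 genes was called, with amplitudes of 0.20 for HEMB1, 0.19 for CHLM and 0.48 for PORB. PORB also lost its call with no filter and without moderation (amplitude 0.56 in both, adjusted p of 0.059 and 0.13) and without linear time (amplitude 0.48, adjusted p = 0.077). Dropping the filter changed both the number of tests and the fit of the variance model, and the cause of each loss was not tested. With 1 array left out the amplitude of HEMB1 was 0.18 to 0.26, that of CHLM 0.17 to 0.24 and that of PORB 0.44 to 0.65. Over all 24 alternatives the adjusted p ranged from 0.011 to 0.12 for HEMB1, 0.0035 to 0.076 for CHLM and 0.0097 to 0.14 for PORB.

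Amplitudes of ratios with 1 array left out were 0.16 to 0.24 for HEMB1 to GSA1, 0.28 to 0.35 for CHLM to GSA1, 0.47 to 0.67 for PORB to GSA1, 0.33 to 0.38 for CHLM to HEMB1, 0.30 to 0.45 for PORB to HEMB1 and 0.46 to 0.68 for PORB to CHLM. At 26 h the ratios HEMB1 to GSA1 (0.16), CHLM to GSA1 (0.30) and PORB to CHLM (0.54) no longer passed. Without hours 26 and 74 the same ratios, at 0.16, 0.35 and 0.46, had an adjusted p of 0.053 each. PORB to GSA1 passed at 22 h (0.54, adjusted p = 0.042). The count of drifting probe sets, 131, was 8 without moderation, 46 at 26 h, 56 without 24 h terms, 20 without hours 26 and 74, and 48 to 169 with 1 array left out. It was 48 without hour 26, 79 without hour 42 and 75 without hour 74. The slope of GSA1 with 1 array left out ran from -0.025 to 0.058, and was -0.023 without hour 30, -0.025 without hour 58 and -0.0031 without hour 70. The cycle comparison called 1 probe set at 22 h, 12 at 26 h and 0 with each of its 12 arrays left out. No paired analysis was possible because every array carries replicate number 1, so no block by replicate number can be fitted. The pairs of arrays 24 h apart go by hour and not by replicate. Signals of the 4 genes lay far above the filter, and the offset changed none of their calls.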

Other observations

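The course of PORB was compared with its curve hour by hour. At hour 6 of the day its signals of 2179 and 2526 lay above the fitted curve by 0.45 and 0.37 (log2), and at hour 14 its signals of 1334 and 1290 lay below it by values of -0.19 and -0.54. The fitted peak at hour 9.36 therefore came later than the highest mean signal by hour of day, which was 2353 at hour 6 (2 arrays), against 2103 at hour 10 (2 arrays). HEMB1 had its highest mean signal by hour of day at hour 10 (725, 2 arrays), CHLM at hour 6 (1229, 2 arrays) and GSA1 at hour 10 (473, 2 arrays), while GSA1 had its lowest at hour 6 (361), where PORB and CHLM had their highest. These readings were made after the values were seen and carry no test.

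HEMA3, HEMB2 and HEMF2, listed relatives of HEMA2, HEMB1 and a coproporphyrinogen oxidase, were too dim for the filter, with median signals of 1.75, 26.2 and 16.3. Without the filter none of them was called rhythmic (adjusted p of 0.16, 0.24 and 0.46).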
